A study of Mus musculus with 10 samples.

Results

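The MHC class II genes and their transactivator gene Ciita were followed in RNA from mouse bone marrow cells, where mice drank either regular water or water holding 1% α-ketoglutarate (α-KG). The 10 members were chosen by gene symbol from the 55367 genes of the deposited count table, and all 10 were found and passed the filter on low counts. They are Ciita, Cd74, the class II chain genes H2-Aa, H2-Ab1 and H2-Eb1, the H2-DM genes H2-DMa, H2-DMb1 and H2-DMb2, and the H2-O genes H2-Oa and H2-Ob. There were 5 libraries of each kind (water 1 to 5 and α-KG 1 to 5, where the numbers are names only), with 14291364 to 22490118 counts in each. The structural RNA genes Rn7s1 and Rn7s2 together took 7.56% to 24.2% of the counts in water and 23.97% to 31.0% in α-KG. The labels call the cells BMMC and give no genotype, strain, sex, age or length of treatment; α-KG is a metabolite of the tricarboxylic acid cycle. The series as a whole concerns myeloproliferative neoplasms, and whether these mice carried a disease allele is not stated. Whether the libraries stem from separate animals is not stated either, and a p-value below then reflects only the spread among these libraries, which may be technical.

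MHC class II molecules are pairs of an α and a β chain that show peptides from taken-up proteins to CD4+ T cells. In marrow they are carried mainly by mature B cells, dendritic cells and part of the monocytes and macrophages. The chains are escorted from the endoplasmic reticulum to endosomes by the invariant chain, encoded by Cd74, whose last fragment is then replaced by a peptide with the help of H2-DM. H2-O binds H2-DM and inhibits it. CIITA does not bind DNA itself: it is recruited to factors already sitting on the X and Y boxes of the class II promoters, the RFX complex, CREB family proteins and NF-Y.

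The 8 members with an H2 symbol lie together on chromosome 17 between positions 34092340 and 34316674 (GRCm38, GENCODE M21), a span of 224.3 kb. Ciita lies on chromosome 16 (10480059 to 10528418). RefSeq promoter windows (GRCm38.p6) were found for 7 of the 10 members. The 250 bases before the start were searched on both strands for ATGATGC, a word from the X box, and for ATTGG, the core of the Y box; the words do not overlap. The X word was chosen after reading these promoters, so its presence there is a description. The stretches of the 4 members that held it are shown because the element is shared by a class II β chain gene (H2-Eb1), both DMβ genes and H2-Ob. Capitals mark the X word and, where printed, the Y core, 5′ to 3′ on the plus strand:
H2-Eb1 (chr17:34305768-34305820): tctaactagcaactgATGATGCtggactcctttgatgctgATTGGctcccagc
H2-Ob (chr17:34238810-34238860): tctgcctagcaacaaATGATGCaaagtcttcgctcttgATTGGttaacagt
H2-DMb2 (chr17:34145118-34145171): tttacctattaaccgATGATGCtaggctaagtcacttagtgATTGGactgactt
H2-DMb1 (chr17:34153089-34153118): tttacctagtaactgATGATGCtaggctga
The Y core followed the X word after 18 bases in H2-Eb1, 16 in H2-Ob, 19 in H2-DMb2 and 19 in H2-DMb1, where only the X part is printed because GENCODE places an exon there. The stretch of H2-DMb2 lies inside the GENCODE span of the gene but in none of its exons. Of 32851 promoter windows of the same length, 1.99% held the X word, 33.8% the Y core and 0.286% both in this order on 1 strand. H2-Aa and H2-Oa held the Y core, starting 48 and 43 bases before the start, without the X word, and H2-DMa held the Y core in 1 of its 2 windows. No match says only that these letters are not in the window.

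All 10 members were at higher levels in the α-KG libraries on average, and 3 rose over all genes tested: Ciita, H2-DMa and H2-DMb1. With edgeR's quasi-likelihood test and Benjamini-Hochberg adjustment over 15126 genes (threshold 0.05), 2.73% of all genes were called, 2.39% higher in α-KG and 0.344% lower. The log2 fold changes of the members ran from 0.87 to 1.64 with a median of 1.20, beside a median of 0.02 over all genes tested. All 10 had an unadjusted p under 0.05 in this direction, as 16.3% of all genes did, and the 7 members that were not called had adjusted p of 0.0608 to 0.161. In 0 of the 10 did every α-KG library lie above every water library, where 3.64% of all genes did, because α-KG 2 lay inside the range of the water libraries for all 10 members. Whether more cells carrying class II or more class II RNA per cell gave these levels cannot be told apart in bulk RNA.

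**Figure D1:**
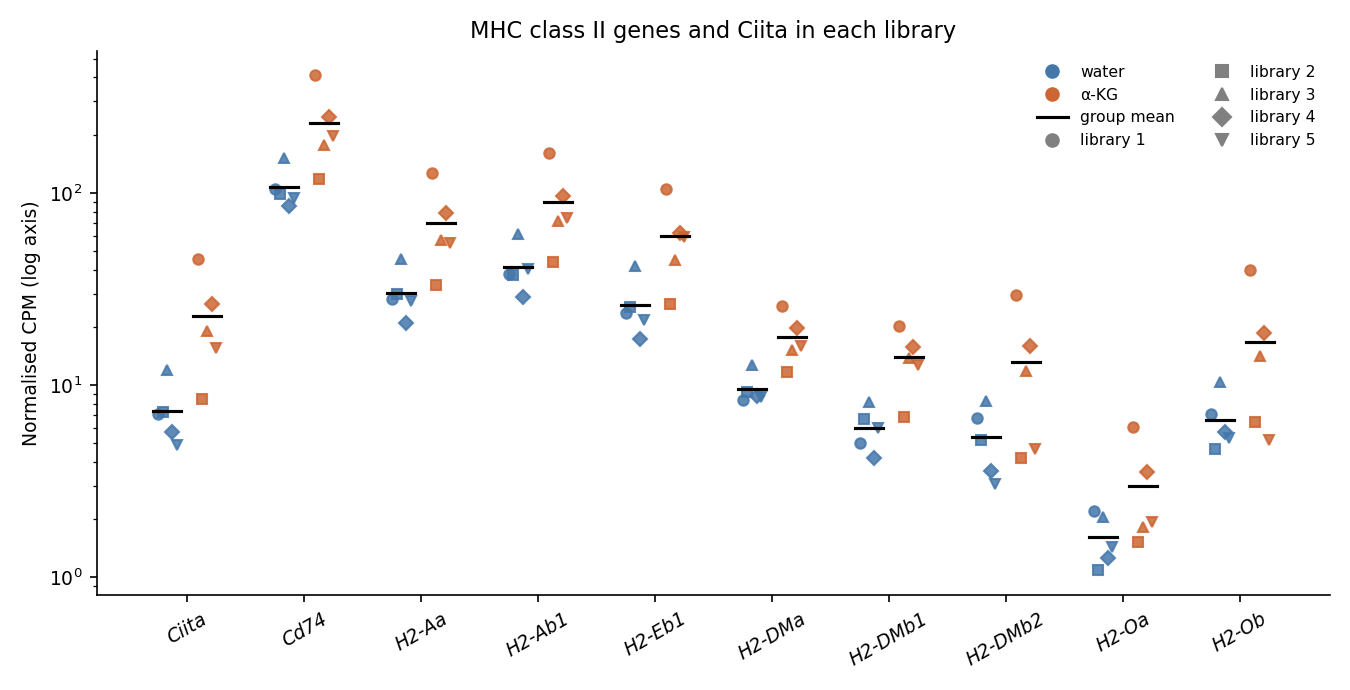
Level of each member in each library as CPM (counts per 1000000 after TMM scaling, log axis), with water libraries in blue, α-KG libraries in orange, a symbol for each library number (numbers pair nothing) and a line at the group mean. α-KG 1 is the highest library for all 10 members, and α-KG 5 sits among the water libraries for H2-DMb2, H2-Oa and H2-Ob.

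Ciita, which sets how much class II a cell makes, stood at 7.05, 7.25, 11.9, 5.72 and 4.86 CPM in water 1 to 5 and at 45.3, 8.49, 19.2, 26.6 and 15.7 CPM in α-KG 1 to 5. In α-KG 1, 3, 4 and 5 it was above every water library, and α-KG 2 was below water 3. The group means were 7.36 ± 2.74 and 23.05 ± 14.0 CPM (SD, n = 5), and Ciita rose by 1.64 ± 0.39 (SE) on the log2 scale (edgeR, adjusted p = 0.0489), the largest change among the members. Dexi overlaps Ciita on the opposite strand, and how strand entered the counting is unknown here.

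Cd74 (chromosome 18, 60803848 to 60812652), encoding the invariant chain, was the most abundant member and stood at 106, 98.9, 153, 86.0 and 94.0 CPM in water 1 to 5 and at 409, 118, 179, 250 and 198 CPM in α-KG 1 to 5. Again 4 α-KG libraries lay above all water libraries and α-KG 2 lay below water 3. The log2 fold change of Cd74 was 1.10 ± 0.30 SE (edgeR, adjusted p = 0.0611), which did not pass.

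In the chain genes, too, α-KG 1 and α-KG 4 were the highest libraries, and water 3 the highest of the water libraries. H2-Ab1, the β chain of the I-A molecule, was at 37.9, 37.6, 60.9, 28.9 and 40.0 CPM in the water libraries and at 162, 43.8, 71.5, 96.3 and 74.1 CPM in the α-KG libraries. H2-Aa, its α chain partner, was at 20.95 to 45.3 CPM in water and 33.2 to 128 in α-KG, and H2-Eb1, the β chain of the I-E molecule, at 17.3 to 41.8 and 26.6 to 105. Their log2 fold changes were 1.13 ± 0.31 for H2-Ab1, 1.21 ± 0.32 for H2-Aa and 1.19 ± 0.33 for H2-Eb1 (SE; edgeR, adjusted p = 0.0608 to 0.0662), and none of the 3 passed. The related β chain gene H2-Eb2 was near the limit of detection, at 0.286 to 0.888 CPM in water and 0.247 to 2.99 in α-KG (1.09 ± 0.54, adjusted p = 0.206).

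Both tested subunit genes of H2-DM that pair as DMα and DMβ1 rose. H2-DMa was at 8.38, 9.18, 12.7, 8.77 and 8.72 CPM in water 1 to 5 and at 25.7, 11.8, 15.2, 19.9 and 16.0 CPM in α-KG 1 to 5. It had the smallest SE among the members and rose by 0.89 ± 0.20 SE on the log2 scale (edgeR, adjusted p = 0.0402). H2-DMb1 was at 5.01, 6.65, 8.14, 4.17 and 6.01 CPM in water and at 20.4, 6.86, 13.9, 15.9 and 12.7 CPM in α-KG, and rose by 1.22 ± 0.26 (adjusted p = 0.0358). For both genes, α-KG 2 was the 1 α-KG library that did not exceed water 3.

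The second DMβ gene and the H2-O genes had wider spreads and did not pass. H2-DMb2 stood at 6.74, 5.21, 8.31, 3.56 and 3.07 CPM in water 1 to 5 and at 29.5, 4.20, 11.9, 16.0 and 4.68 CPM in α-KG 1 to 5 (log2 fold change 1.29 ± 0.49 SE, edgeR, adjusted p = 0.126). H2-Ob, the β chain of H2-O, stood at 7.08, 4.67, 10.4, 5.72 and 5.29 CPM in water and at 39.7, 6.47, 14.2, 18.6 and 5.18 CPM in α-KG (1.34 ± 0.48, adjusted p = 0.110). H2-Oa, its α chain, was the scarcest of the H2 members at 2.23, 1.09, 2.06, 1.27 and 1.43 CPM in water and 6.07, 1.53, 1.83, 3.52 and 1.94 CPM in α-KG (0.87 ± 0.38, adjusted p = 0.161). In these 3 genes α-KG 5 was inside the range of the water libraries, at 0.869, 1.20 and 0.782 times the water mean for H2-DMb2, H2-Oa and H2-Ob. For the other 7 members α-KG 5 was above all water libraries, at 1.68 to 2.28 times the water mean.

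Some counts of the H2-DM genes are less certain than the others. Of the 50-base words in the GENCODE transcripts of H2-DMb1, 22.7% also occur in transcripts of H2-DMb2, and the deposited counts of H2-DMa, H2-DMb1 and H2-DMb2 were fractional in all 10 libraries. The counts of H2-Oa were fractional in 6 libraries. H2-DMa overlaps CR974462.3 on the same strand, and Brd2, CR974462.4 and Gm20493 on the opposite strand. H2-Oa overlaps BC051537 on the opposite strand, and H2-Eb1 overlaps the antisense gene Gm20513. Reads of such pairs cannot be separated here.

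Per length, the members differed widely in abundance, though the scarcer ones overlapped. The lengths merge all annotated exons, and which transcripts were expressed is not known here. With levels as CPM per kb of merged GENCODE exons, Cd74 was at 64.0 ± 15.7 in the water and 137 ± 65.8 in the α-KG libraries (SD, n = 5). The chain genes H2-Ab1 (16.0 ± 4.63 in water), H2-Eb1 (13.4 ± 4.79) and H2-Aa (7.98 ± 2.38) came next. H2-Ab1 and H2-Eb1 did not differ beyond their spread. H2-DMb1, H2-DMb2 and H2-DMa followed at 3.57 ± 0.908, 3.08 ± 1.25 and 2.77 ± 0.515 in water, within their spread of each other. H2-Ob and H2-Oa were at 1.23 ± 0.423 and 1.15 ± 0.356, also within their spread. Ciita was lowest on average at 0.772 ± 0.287, within the spread of H2-Oa and H2-Ob. In α-KG the order of the means was kept except for the last pair, with Ciita at 2.42 ± 1.47 beside 2.12 ± 1.34 for H2-Oa. H2-DMa at 5.14 ± 1.54 and H2-Ob at 3.13 ± 2.59 overlapped there as well.

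α-KG 1 stood apart from the other α-KG libraries in these genes. It was the highest of all 10 libraries for each of the 10 members, at 1.54 (H2-DMb1) to 3.85 times (H2-Ob) the median of the other 4 α-KG libraries, and α-KG 4 was second among the α-KG libraries for all 10. The members summed to 971 CPM in α-KG 1, to 260.6 to 587 CPM across α-KG 2 to 5 and to 182 to 355 CPM in water. Without α-KG 1 all 10 log2 fold changes stayed above 0, from 0.39 (H2-Oa) to 1.22 (Ciita), and 0 members passed (adjusted p of 0.0639 to 0.481), with 7 at an unadjusted p under 0.05; 0.77% of all genes were then called higher. H2-DMb2, H2-Oa and H2-Ob moved most, from 1.29, 0.87 and 1.34 to 0.73, 0.39 and 0.71. The calls also ended when any 1 of 7 other libraries was left out, namely water 1, 2, 4 or 5, or α-KG 3, 4 or 5, while 8 to 10 members kept an unadjusted p under 0.05 in edgeR. This loss was not particular to the members: 0 of all genes were called without water 1, 2 or 4 or α-KG 4, and the share called higher was 0.354% without water 5, 0.22% without α-KG 3 and 0.858% without α-KG 5. Without water 3, the highest water library for 9 of the 10 members, 7 members passed beside 3.52% of all genes called higher. Without α-KG 2, the lowest α-KG library for 9 of the 10, 9 passed beside 10.5% of all genes. DESeq2 called 8 of the 10, all except H2-DMb2 and H2-Oa (adjusted p = 0.0605 and 0.141), and 6.06% of all genes higher. Limma voom called 0 members, with 7 at an unadjusted p under 0.05, and 1.49% of all genes higher.

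Markers of several cell types differed between the same libraries. As background to the counts of called markers, 2.39% of all genes tested were called higher in α-KG. All 19 mature B cell markers were measured, with 0 called and 16 log2 fold changes above 0 (median 0.58). They summed to 298 to 520 CPM in water, 953 in α-KG 1 and 287 to 469.6 across α-KG 2 to 5, and α-KG 5 was the lowest of all 10. Ighm, the IgM heavy chain gene, gave a large share of these sums (113.8 to 298.7 CPM over all libraries). In the mean log2(CPM + 1) of the list, α-KG 1, 3 and 4 (5.13, 3.80 and 4.06) were above all water libraries (3.06 to 3.77), and α-KG 2 (3.38) and α-KG 5 (3.03) were not. Cr2 and Fcer2a, receptors of mature B cells, were at 12.2 and 24.1 CPM in α-KG 1, at 5.25 and 8.44 in α-KG 3, at 3.99 and 7.79 in α-KG 4 and at 1.295 and 2.37 in α-KG 5, against at most 1.49 and 5.04 in water. H2-DMb2, H2-Oa and H2-Ob were likewise highest in α-KG 1 and within the water range in α-KG 5. Cr2 and Fcer2a had the largest log2 fold changes of the list. Cd79a was inside its water range (14.0 to 29.6 CPM) in α-KG 3 and 4, at 21.9 and 24.8 CPM. Cd79b was too, at 7.91 and 11.9 CPM against 6.75 to 16.1 in water. Ighm, Tnfrsf13c and Fcrla had log2 fold changes below 0, at -0.31, -0.15 and -0.06 (edgeR, adjusted p = 0.446 to 0.938). The part of B cells in the class II levels was not tested.

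Monocyte and macrophage markers were higher in every α-KG library in sum. Of 18 measured monocyte markers 11 rose, beside 2.39% of all genes tested, with a median log2 fold change of 1.03. They summed to 1086 to 1388 CPM in water and 1416 to 2584 CPM in α-KG. Of 17 macrophage markers 16 were tested and 7 rose (median 1.04), with sums of 129 to 193 CPM in water and 212 to 338 in α-KG. In both lists α-KG 2 had the lowest sum of the α-KG libraries, as it had for the class II genes, but α-KG 1 did not have the highest. Csf1r, the receptor that monocytes need for survival, went from 32.5 to 46.8 CPM in water to 46.2 to 90.4 CPM in α-KG (log2 fold change 0.98 ± 0.18 SE, edgeR, adjusted p = 0.0232). The part of monocytes and macrophages in the class II levels was not tested.

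T cell and NK cell markers were also higher in most α-KG libraries. Of 14 T cell markers 2 rose, Cd3e and Bcl11b, beside 2.39% of all genes tested, and all 14 log2 fold changes were above 0 (median 0.74). They summed to 21.6 to 32.1 CPM in water, 22.9 in α-KG 2 and 36.6 to 60.3 across α-KG 1, 3, 4 and 5. Of 8 tested NK cell markers 1 rose, Il2rb, and all 8 were above 0 (median 0.81), with sums of 16.7 to 25.3 CPM in water and 21.03 to 40.2 in α-KG. As for the class II genes, α-KG 2 was the lowest α-KG library and water 3 the highest water library in both sums. Their part in the class II levels was not tested.

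Of 18 conventional dendritic cell markers 17 were tested and 1 rose, Clec10a, a lectin that monocyte-derived cells and macrophages also express (1.16 ± 0.26 SE, edgeR, adjusted p = 0.0404). Among all genes tested, 2.39% were called higher. Of the 17 log2 fold changes 13 were above 0 (median 0.35). Sums were 214 to 246 CPM in water, 359 in α-KG 1 and 229.7 to 277 across α-KG 2 to 5. Wdfy4 gave a large share of these sums, at 238 CPM in α-KG 1 and 96.2 to 134.8 CPM in water. In the mean log2(CPM + 1) of the list, α-KG 1 was at 2.78 and the water libraries at 2.41 to 2.61. Wdfy4, Fscn1 and Cd209a were at log2 fold changes of 0.51, 0.84 and 0.73 (edgeR, adjusted p = 0.124 to 0.162). Zbtb46, Clec9a, Flt3 and Batf3 were at -0.32, 0.28, 0.29 and 0.04 (edgeR, adjusted p = 0.339 to 0.955). The lowest value was that of Snx22, at -0.86 (edgeR, adjusted p = 0.261). All 12 plasmacytoid dendritic cell markers were tested, with 0 called and a median of -0.14, and Siglech was at 4.94, 7.21, 1.299, 7.32 and 7.70 CPM in α-KG 1 to 5, against 6.34 to 8.74 in water. No dendritic cell, B cell, monocyte or macrophage marker was at 0 in all libraries.

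Erythroid markers also set α-KG 1 apart, though not every one. Of 10 markers 0 were called between the groups (median log2 fold change -0.66), where 2.73% of all genes tested were called in either direction. Ermap, an erythroid membrane gene, was at 62.3 CPM in α-KG 1, at 163 to 499.7 CPM across α-KG 2 to 5 and at 435 to 657 CPM in water. Tfrc, the transferrin receptor gene, was at 100.4 CPM in α-KG 1 and at 380 to 1383 CPM in the 9 remaining libraries. The globin genes Hbb-bs and Hba-a1 were lowest in water 3, not in α-KG 1. The part of the erythroid share in the class II levels was not tested.

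**Figure D2:**
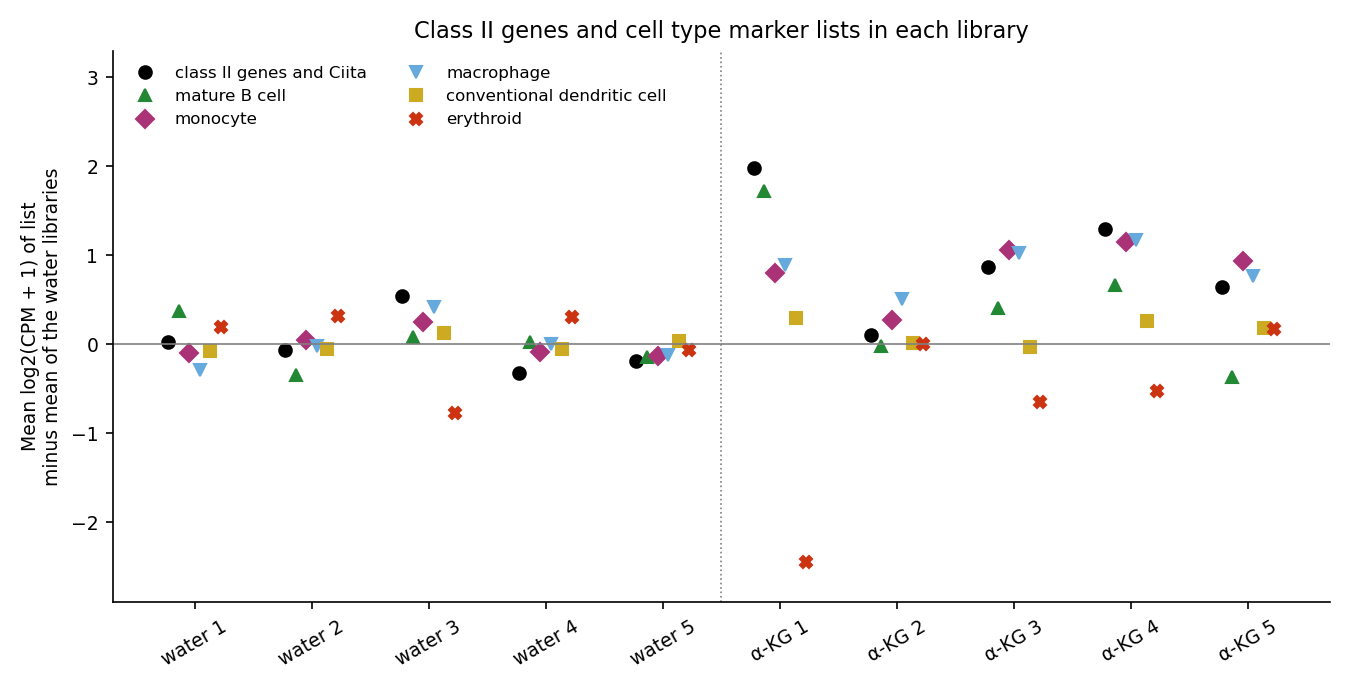
Mean log2(CPM + 1) of the 10 members and of 5 marker lists in each library, minus the mean of the 5 water libraries, with the groups split by a dotted line. In α-KG 1 the class II genes and mature B cell markers are both far above the water libraries and the erythroid markers far below, while in α-KG 5 the class II genes and monocyte markers are above and the mature B cell markers below.

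The fitted changes of the members were smaller with a marker mean as a covariate. With the mean of the mature B cell list in the model, all 10 log2 fold changes stayed above 0, 0 passed (0.549% of all genes were called higher) and 7 had an unadjusted p under 0.05. H2-DMb1 was then at 0.97 ± 0.25 and Ciita at 1.05 ± 0.28, while H2-DMb2, H2-Oa and H2-Ob were at 0.33 ± 0.29, 0.24 ± 0.24 and 0.32 ± 0.21 (SE). The mature B cell mean was 5.13 in α-KG 1 and 3.03 to 4.06 in all other libraries, so α-KG 1 weighs heavily in this fit. With the mean of the monocyte list, the 10 values ran from -0.25 (H2-DMb2) to 0.26 (H2-Oa), Ciita was at 0.15 ± 0.70, and 0 of all 15126 genes were called, with 193 at an unadjusted p under 0.05. The monocyte mean was higher in each α-KG library than in each water library, so in that fit it cannot be told apart from the treatment, and the errors were larger for all members.

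**Figure D3:**
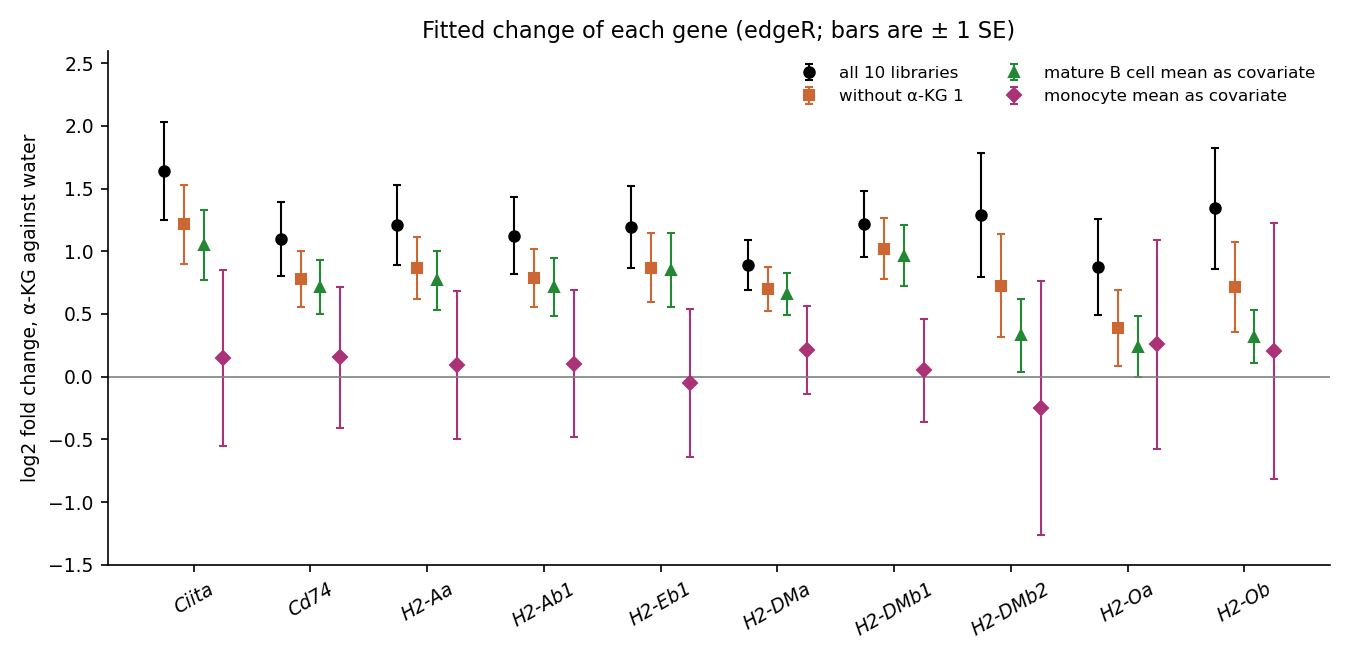
Log2 fold change of each member, α-KG against water, with bars of ± 1 SE, from all 10 libraries, without α-KG 1, and with the mean of the mature B cell or monocyte markers as a covariate. Values from all libraries lie between 0.87 and 1.64, and those with the monocyte mean lie around 0 with wider bars.

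Ratios between members within a library do not depend on library scaling, and 4 were compared by two-sided exact permutation, using all 252 ways to assign 5 and 5 libraries. Counts of Cd74 were 235% to 298% of those of H2-Ab1 over all 10 libraries. This ratio of invariant chain to class II chain differed by -0.03 on the log2 scale between α-KG and water (exact permutation p = 0.698, adjusted p = 0.706 over the 4 ratios), although the levels of both genes varied several-fold between libraries. Ciita counts were 18.6%, 19.3%, 19.6%, 19.8% and 12.1% of the H2-Ab1 counts in water 1 to 5 and 27.9%, 19.4%, 26.8%, 27.6% and 21.2% in α-KG 1 to 5. The log2 ratio averaged -2.51 ± 0.30 in the water and -2.04 ± 0.25 in the α-KG libraries (SD, n = 5), a difference of 0.47 (exact permutation p = 0.0238, adjusted p = 0.0952), which did not pass. It passed without α-KG 2 (0.55, exact permutation, adjusted p = 0.0317) and was 0.33 without water 5.

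The balance of H2-O to H2-DM did not differ beyond the spread of the libraries. H2-Ob counts were 50.9% to 84.6% of H2-DMa counts in water, and 154%, 55.0%, 93.2%, 93.8% and 32.3% in α-KG 1 to 5, so the α-KG libraries held both the highest and the lowest ratio. The difference of means was 0.16 on the log2 scale (exact permutation p = 0.706, adjusted p = 0.706), and it turned to -0.10 without α-KG 1. For H2-Oa to H2-DMa, at 11.9% to 26.5% in water and 12.01% to 23.6% in α-KG, the difference was -0.12 (exact permutation p = 0.611, adjusted p = 0.706), and it turned to 0.05 without water 1.

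A further 4 ratios, of which 3 are described, were chosen after the values had been seen, with p-values adjusted over the 4. H2-DMb2 counts were 145% of H2-DMb1 counts in α-KG 1 and 36.9% in α-KG 5, the extremes of all 10 libraries, and the groups differed by -0.15 on the log2 scale (exact permutation p = 0.738, adjusted p = 0.921). H2-Ab1 counts were 41.5% of those of B2m, the shared light chain of class I molecules, in water and 85.2% in α-KG on average, a difference of 0.96 in the mean log2 ratio (exact permutation p = 0.0397, adjusted p = 0.159). α-KG 1 was at 180% and α-KG 2 to 5 at 48.6% to 71.6%, and the difference was 0.64 without α-KG 1. Against the monocyte gene Csf1r the difference of H2-Ab1 was 0.08 (exact permutation p = 0.921, adjusted p = 0.921). H2-Ab1 counts were 89.2% to 107% of Csf1r counts in α-KG 2 to 5, 236% in α-KG 1 and 88.9% to 130% in water. The last difference was -0.18 without α-KG 1, and none of these 3 passed.

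**Figure D4:**
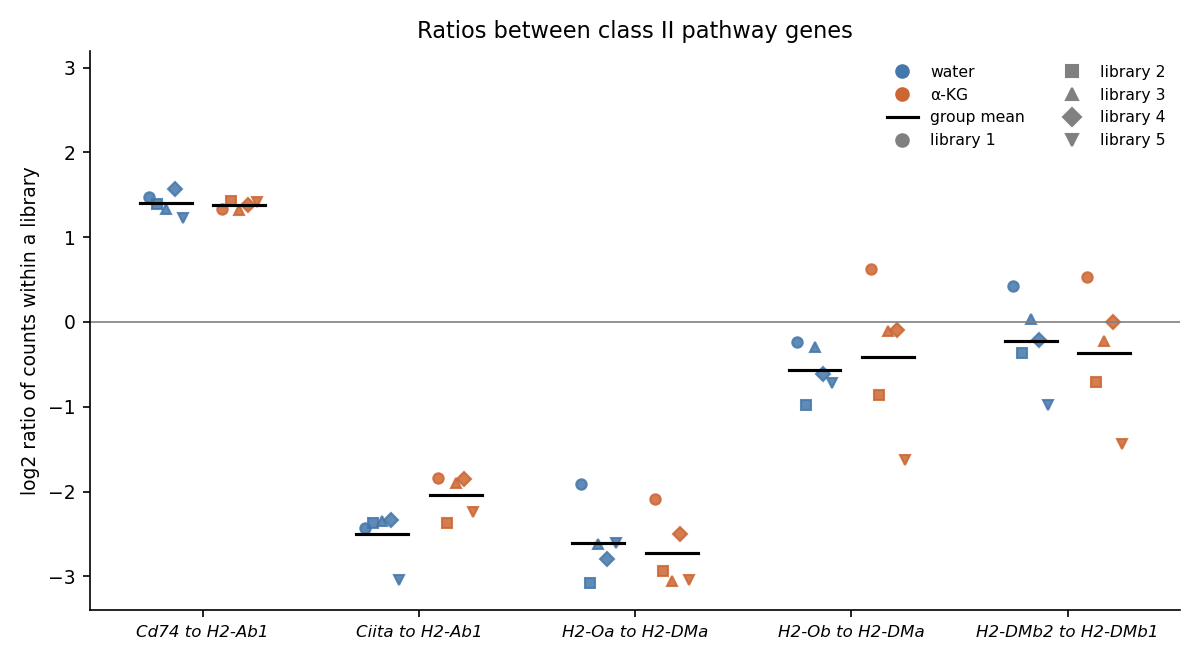
Log2 ratio of counts of 2 genes within each library, with water in blue, α-KG in orange, a symbol for each library number and a line at the group mean. Cd74 to H2-Ab1 is nearly the same in all libraries, and H2-Ob to H2-DMa and H2-DMb2 to H2-DMb1 spread widest in α-KG, with α-KG 1 on top and α-KG 5 at the bottom.

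The factors that recruit CIITA to the promoter did not pass. Of 21 genes of the promoter complex and of Ciita's own regulators 20 were tested, with 0 called in either direction and a median log2 fold change of 0.12. Over all genes tested 2.73% were called, so 0 of 20 does not set this list apart. The RFX complex genes Rfx5, Rfxap and Rfxank were at 0.23, -0.02 and -0.14 (edgeR, adjusted p = 0.504 to 0.955). The NF-Y genes Nfya, Nfyb and Nfyc were at -0.24, -0.48 and -0.36 (adjusted p = 0.0733 to 0.179). Irf8 and Spi1, myeloid transcription factors, were at 0.45 and 0.41 (adjusted p = 0.0926 and 0.119), and Pax5, the B cell factor, was at 119 CPM in α-KG 1 and at 20.15 to 37.6 CPM across α-KG 2 to 5 (0.40 ± 0.40 SE, adjusted p = 0.520).

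Interferon-γ is the main inducer of Ciita outside B and dendritic cells. Counts of called genes here stand beside 2.39% of all genes tested that were called higher. Of 8 genes of its signal 7 were tested and both receptor chain genes rose: Ifngr1 by 0.68 ± 0.14 and Ifngr2 by 0.54 ± 0.11 on the log2 scale (SE; edgeR, adjusted p = 0.0309 and 0.0354). Ifngr2 was at 14.7 to 16.1 CPM in water and 18.8 to 27.6 CPM in α-KG, without overlap. Every α-KG library likewise lay above every water library for 3.64% of all genes tested. Jak1, a kinase of the receptor, was at 0.05, the target Irf1 at 0.19 and the inhibitor Socs1 at -0.04 (adjusted p = 0.448 to 0.917), and none of these passed.

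Among 23 measured genes of endosomal processing 4 rose, 0 were called lower and the median log2 fold change was 0.22. In comparison, 2.39% of all genes tested were called higher and 0.344% lower. Ctss, the protease that makes the last cuts in the invariant chain, was at 26.3, 36.6, 44.7, 33.2 and 30.5 CPM in water 1 to 5 and at 74.8, 48.8, 77.9, 87.2 and 87.7 CPM in α-KG 1 to 5, without overlap (1.13 ± 0.18 SE, edgeR, adjusted p = 0.0154). Cst3, Ifi30, Ap1s1 and Ctsz were also higher without overlap, as were 3.64% of all genes tested. Cst3, a cathepsin inhibitor, rose by 0.71 ± 0.14, and the proteases Napsa and Lgmn by 0.70 ± 0.16 and 0.72 ± 0.18 (adjusted p = 0.0278, 0.0445 and 0.0492). Ctss, Cst3, Napsa and Lgmn are also expressed by monocytes and macrophages. The thiol reductase gene Ifi30 was at 0.46 and Marchf1, a ubiquitin ligase that sends class II to breakdown, at 0.81 (adjusted p = 0.0577 and 0.0560). Cd83, which opposes Marchf1, was at 31.4 CPM in α-KG 1 and 7.75 to 19.2 CPM across α-KG 2 to 5 (1.20 ± 0.37, adjusted p = 0.0828). Of the 23, 8 had log2 fold changes below 0, among them Cd82, a membrane tetraspanin, at -0.75 ± 0.23 and the protease gene Ctse at -1.17 ± 0.42 (adjusted p = 0.0814 and 0.113). The summed level of the list was lowest in α-KG 1, at 957 CPM against 1173 to 1602 CPM in the other libraries. Abundant genes weigh most in this sum, and Marchf8, Ctse and Ctsb were at 38.3, 27.3 and 119 CPM in α-KG 1, their lowest library. Ctss, Cst3, Ifi30, Ctsz, Ctsh and Cd83 were above every water library in α-KG 1. In the mean log2(CPM + 1) of the list, α-KG 1 (5.06) lay inside the range of the water libraries (5.03 to 5.17).

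Of 10 costimulator genes 7 were tested. Their log2 fold changes were all above 0 (median 0.83), and 0 were called, where 2.73% of all genes tested were called in either direction. Cd86, a ligand of the T cell receptor CD28, was at 1.57 to 3.91 CPM in water and 3.36 to 6.65 CPM in α-KG (0.96 ± 0.27 SE, edgeR, adjusted p = 0.0659). Cd40, the receptor for T cell help, was at 0.568 to 1.31 CPM in water and at 4.82, 1.09, 2.07, 2.47 and 1.655 CPM in α-KG 1 to 5 (1.28 ± 0.38, adjusted p = 0.0762).

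Genes of class I presentation were measured in full, with 3 of 23 called higher, where 2.39% of all genes tested were. Their median log2 fold change was 0.23 beside 1.20 for the class II members. Those that rose were the immunoproteasome genes Psmb10 and Psmb8 (0.72 ± 0.14 and 0.63 ± 0.15 SE; edgeR, adjusted p = 0.0278 and 0.0445) and Nlrc5, the class I transactivator and a relative of Ciita (0.70 ± 0.17, adjusted p = 0.0489). The heavy chain genes H2-K1 and H2-D1 were at 0.27 and 0.16 and B2m at 0.09 (adjusted p = 0.364 to 0.750).

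**Figure D5:**
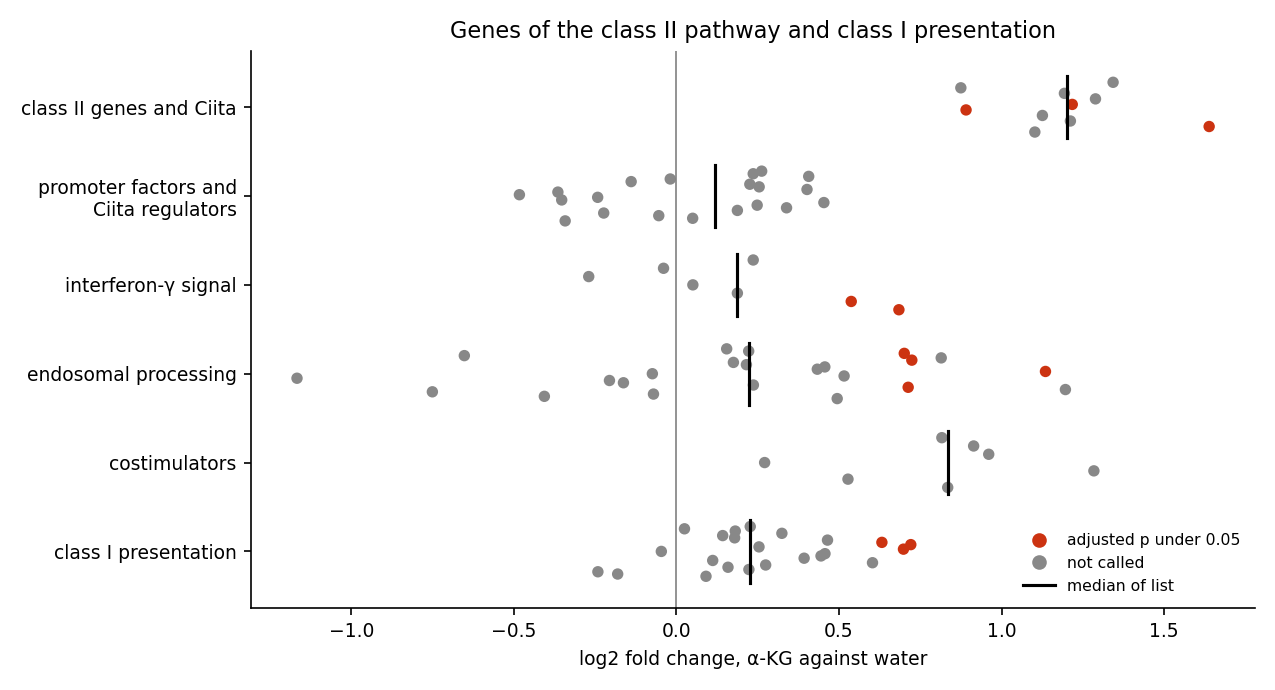
Log2 fold change of each tested gene, α-KG against water, for the 10 members and 5 lists of related genes, with called genes in red (edgeR, adjusted p under 0.05), others in grey and a black line at each list's median. The medians are 1.20 for the class II genes and Ciita, 0.83 for the costimulators and 0.12 to 0.23 for the other 4 lists.

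The genes whose levels followed the class II members most closely within the groups were sought among 11342 named genes, by Pearson's r between deviations from the group means over the 10 libraries. The 10 highest were Plekhg2, Mycbp2, Bcl9l, Tcof1, Ctif, Shisa5, Abca1, Evl, Snx9 and Epb41l2, with r of 0.961 to 0.985. None of them is in the marker or pathway lists, and all share libraries and depth with the members. Without α-KG 1 (9 libraries), the highest was the macrophage marker Adgre1, at 0.978, where it had been at 0.609 over all 10, and the list also held the T cell gene Cd8a (0.965). Plekhg2, Mycbp2 and Bcl9l were in both sets of 10. With 10 libraries and so many genes these are descriptions, with no test.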

How the data were processed

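RNA of mouse bone marrow cells was depleted of ribosomal RNA with RNase H and sequenced on an Illumina instrument, per the labels. The submitters' processing notes name bcl2fastq, DRAGEN and build GRCm38, without roles; what did the quantifying, with which annotation and strand setting, is unknown here. The authors deposited expected counts per gene, unscaled, of which 10.3% are not whole; they were rounded. Rows were kept by filterByExpr (minimum count 10, minimum total 15), leaving 15126 of 32256 genes with a count. All 10 libraries entered a quasi-likelihood test (edgeR 4.0.16, TMM, robust, R 4.3.3; two-sided, Benjamini-Hochberg over all genes tested). SE is the absolute log2 fold change over the square root of F. CPM are scaled to 1000000 counts after TMM. The TMM factors ran from 0.737 (α-KG 4) to 1.44 (water 1). List means used log2(CPM + 1). DESeq2 1.42.0, limma 3.58.1 voom, other scalings and filters, covariates and each library left out were alternatives. Promoters came from RefSeq (GRCm38.p6), positions from GENCODE M21.

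The members, lists and ratios were chosen with earlier results of these data known. All 10 members were named; from each list, genes past the threshold (at most 6), those of smallest p and those needed to describe a role; and the 10 genes most like the members. Some genes and 1 ratio are not reported here.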

Additional observations from a re-analysis of the deposited data

Results flagged for a closer look

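In groups of 5 libraries, a highest or lowest value was marked when its gap to the nearest other value exceeded Dixon's 95% critical value of 0.71 of the range. Over 36 groups (10 members and 8 ratios, 2 groups each) 3 values were marked, where chance marks about 1 in 20 groups.

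H2-DMa was at 12.7 CPM in water 3, and the next highest water library was at 9.18 CPM. The log2 ratio of Ciita to H2-Ab1 was -3.04 in water 5, and the next lowest water library was at -2.43. The log2 ratio of H2-Ab1 to Csf1r was 1.24 in α-KG 1, and the next highest α-KG library was at 0.09. For the members themselves, none of the high values of α-KG 1 was marked. Its gap to the next library, α-KG 4, was 0.335 (H2-DMb1) to 0.611 (H2-Ob) of the range.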

How the results depend on the processing

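No paired analysis was possible because no title number occurs in both groups and the labels tie no water library to an α-KG library. Of the 10 members, 3 were called with TMM. The count was 0 with the monocyte or mature B cell mean as a covariate and with limma voom, 8 with DESeq2 and 7 without α-KG 1 and 2 together, a fit added after the data were seen; leaving out single libraries gave 0 to 9, and 0 in 8 of 10 such fits. Over all genes, 413 were called, 0 with the monocyte and 95 with the B cell covariate, 267 with limma voom, 1654 with DESeq2 and 1336 without α-KG 1 and 2 together; leaving out single libraries gave 0 to 2683. Other scalings and filters called 2 or 3 members. With structural RNA, histone and mitochondrial genes left out of the table, 3 were called. The log2 fold changes reversed only with the monocyte covariate, for H2-Eb1 (-0.050) and H2-DMb2 (-0.25), among 200 values from 20 alternatives. Over single libraries left out, the ratio differences ran from -0.28 to 0.050 (H2-Oa to H2-DMa), -0.10 to 0.46 (H2-Ob to H2-DMa), -0.069 to 0.017 (Cd74 to H2-Ab1), 0.33 to 0.55 (Ciita to H2-Ab1), -0.37 to 0.12 (H2-DMb2 to H2-DMb1), 0.64 to 1.17 (H2-Ab1 to B2m) and -0.18 to 0.17 (H2-Ab1 to Csf1r); the cause of these shifts was not tested. Adding 0.5 to each count changed no direction or call. H2-Oa, with 19.96 to 156 counts per library, is the member most limited by depth.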
